A study of Sus scrofa with 15 samples.

Results

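Creatine kinases were examined in backfat, the subcutaneous fat over the back, of 15 castrated male Iberian pigs, as 3 genes represented by 3 probe sets. They were taken by their annotated symbols, CKB, CKM and CKMT2. The table, from an Affymetrix porcine array, held 3272 probe sets, all variable between animals, and 1260 named genes. There were 8 animals on a high-oleic diet, a feed enriched in oleic acid with 3360 kcal per kg, and 7 on a control diet of 3130 kcal per kg. Treatment ran for 24 weeks from 28 kg live weight to slaughter at about 110 kg, and larger rations of the control feed gave both diets the same energy and protein. All animals were of one breed and sex class, and all samples came from the inner layer of the fat, with 1 array per animal. The animal was therefore the replicate. Values are log2 signals, so a difference of 1 is a 2-fold difference, and levels were not compared between probe sets.

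Creatine kinases move phosphate between ATP and creatine, and so buffer and carry energy where it is used quickly. CKB is the brain-type cytosolic enzyme, found in many tissues besides brain, among them smooth muscle and fat. CKM is the cytosolic enzyme of skeletal and heart muscle, and CKMT2 is the sarcomeric enzyme, held in the mitochondria of the same muscles. In mouse thermogenic fat, CKB takes part in a cycle that spends ATP on creatine phosphorylation. The comparison asks how the brain type and the muscle types varied with diet and between animals. The 3 genes were selected on measured values of these animals, CKB on its difference between diets and CKM and CKMT2 as genes of the muscle signal, so diet differences and correlations among them are given as description, without a test.

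All arrays had similar medians, between 6.38 and 6.67. Of the 17 listed adipocyte genes 2 were measured, which here and below means present in the table with 1 symbol. Every probe set in the table deviated by 1.5-fold or more from its median in at least 3 arrays. A listed gene may therefore be missing because it varied little. LEP, which encodes leptin, lay between 10.29 and 12.52 in the 15 animals. Skeletal muscle transcripts were uneven between samples. Of the 41 genes on the skeletal muscle list 14 were measured, and their summed linear signal ran from 160 to 3971 with a median of 564 in high-oleic animals, and from 123 to 5176 with a median of 612 in control animals. High-oleic animal 7 at 3971 and control animals 2 and 5 at 5176 and 2479 stood above the 12 others, whose highest value was 955. In such bulk samples, fewer cells of a type and less RNA per cell cannot be told apart. Signal from spiked control transcripts also varied. Transcripts of Bacillus subtilis spiked into the RNA gave a mean log2 signal over 7 probe sets of 5.25 to 7.29 in high-oleic animals and 5.19 to 6.12 in control animals, with high-oleic animal 8 the highest.

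CKB signal was lower on the high-oleic diet. In the 8 high-oleic animals it ran from 8.87 to 11.37 with a median of 10.16. In the 7 control animals it ran from 10.95 to 12.43 with a median of 12.07. The groups overlapped through few animals. In the high-oleic group 5 animals, numbers 1, 2, 3, 4 and 7, lay below the lowest control animal, and 6 control animals lay above the highest high-oleic animal. High-oleic animals 5, 6 and 8, at 11.33, 11.37 and 11.11, lay above control animal 1 at 10.95, the exception of its group. Within the high-oleic group those 3 animals were set apart from the other 5 by a gap of 0.86, the widest between neighbouring values in either diet. The spread was 0.92 (SD, n = 8) in high-oleic animals and 0.53 (SD, n = 7) in control animals.

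**Figure D1:**
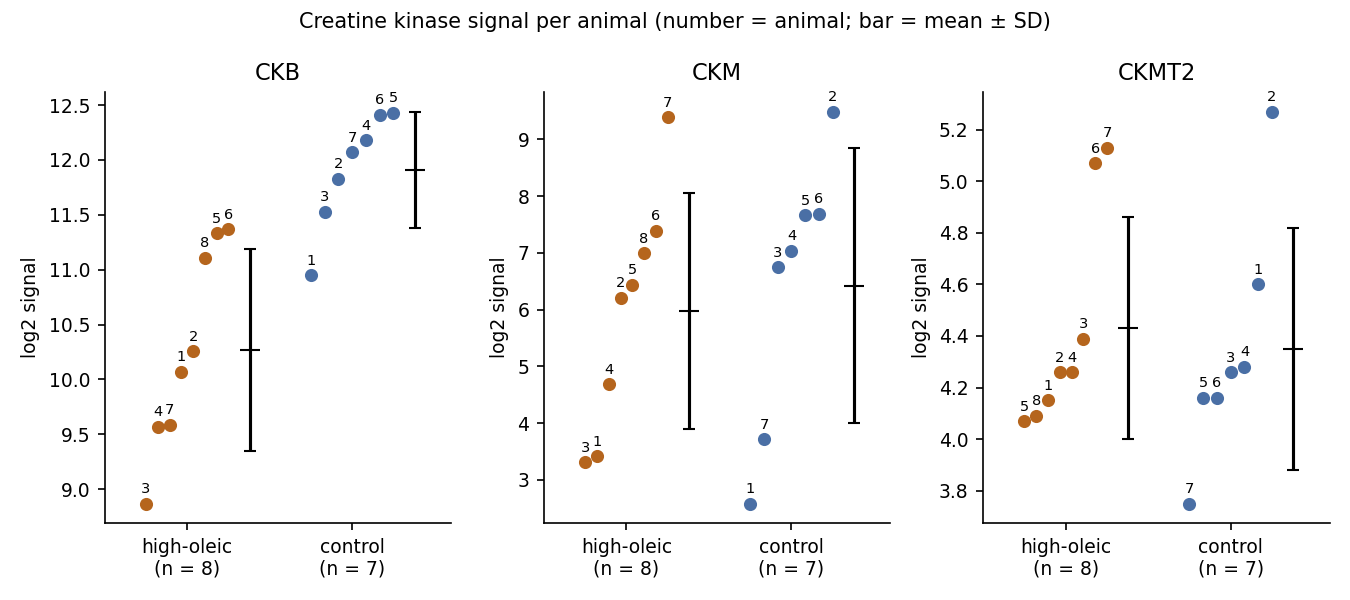
Log2 signal of CKB, CKM and CKMT2 in each animal, with high-oleic animals in brown and control animals in blue, sorted by value and numbered by animal. Black bars give the mean and SD of each diet, the vertical scales differ, and the CKB groups overlap through control animal 1 and high-oleic animals 5, 6 and 8.

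The fitted CKB difference, high-oleic minus control, was -1.64 with a standard error of 0.36 and a 95% interval of -2.40 to -0.89, a signal 3.12-fold lower on the high-oleic diet. It was the second most negative of 3255 probe sets tested, of which 19 (0.584%) were lower by 2-fold or more. Only a probe set of the smooth muscle actin ACTG2 was more negative, at -1.85. CKB was picked for this contrast, so nothing is read from its place among the 3255. In limma with Benjamini-Hochberg adjustment, 0 of 3255 probe sets (0%) differed between diets at an adjusted p under 0.05, and 128 had an unadjusted p under 0.05. A total separation of the diets was seen in 1 probe set of 3255 (0.0307%), which was not CKB. In all 26 other settings run, the CKB difference was negative, between -2.07 and -1.44. They left out animals or changed the scaling or the model, and some could not move it. All reuse the arrays on which CKB was selected, so the constant sign is no independent support.

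CKM, the muscle enzyme, differed far more between animals than between diets. It ran from 3.31 to 9.39 with a median of 6.32 in high-oleic animals, and from 2.58 to 9.49 with a median of 7.04 in control animals. Both groups reached from the low to the high end. High-oleic animal 7 at 9.39 and control animal 2 at 9.49 were the highest, and high-oleic animal 3 at 3.31 and control animal 1 at 2.58 the lowest. The whole range of 6.91 is a 120.2-fold range in signal, wider than in 99.6% of probe sets, against a range of 3.56 for CKB. The diet difference was -0.44 with a standard error of 0.94 and a 95% interval of -2.40 to 1.52. It was 0.58 with live weight in the fit, 0.07 without control animal 2 and -1.08 without control animal 1, so it had no settled direction.

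CKMT2, the sarcomeric mitochondrial enzyme, gave a dim and narrow signal. It ran from 4.07 to 5.13 with a median of 4.26 in high-oleic animals, and from 3.75 to 5.27 with a median of 4.26 in control animals. In 14 of the 15 animals this was below the lower quartile of the array, a rank of brightness and not of RNA amount. Only high-oleic animals 6 and 7 and control animal 2 exceeded 5, at 5.07, 5.13 and 5.27. CKMT2 met the 1.5-fold limit of the table, needed in at least 3 arrays, through these animals alone. The diet difference was 0.07 with a standard error of 0.26 and a 95% interval of -0.46 to 0.61. It turned to -0.03 when control animal 7 was left out, to -0.03 when high-oleic animal 7 was, and to -0.02 when high-oleic animal 6 was, and it was 0.23 without control animal 2.

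The brain type and the muscle types were set against each other within each animal, after each gene's mean over the 15 animals was taken off. CKB minus the mean of CKM and CKMT2 averaged -0.68 ± 1.21 (SD, n = 8) in high-oleic animals and 0.78 ± 1.19 (SD, n = 7) in control animals. The difference between diets was -1.46 with a standard error of 0.62 and a 95% interval of -2.80 to -0.12. That difference contains the CKB diet difference on which CKB was selected, so its interval is no test. Against CKMT2 alone it was -1.72 (95% interval -2.78 to -0.65), and 6 high-oleic animals lay below the lowest control animal. CKMT2 itself differed by 0.07 between diets, so this value largely repeats the CKB difference on which CKB was selected. Against CKM alone the difference between diets was -1.21 (95% interval -3.46 to 1.05), an interval that includes 0. The lowest single value of CKB minus the mean of both was -3.42 in high-oleic animal 7, and the highest was 2.59 in control animal 7. Without high-oleic animal 7 the difference was -1.07.

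CKM varied together with the contractile genes of fast muscle across animals. Likeness was measured as Pearson r over the 15 animals, after the mean of the animal's diet was taken off each gene, against 1257 other named genes. These points share their arrays and, for muscle genes, whatever muscle a sample held, and no test was made. Of the 8 genes most like CKM, 7 were on the skeletal muscle list. TNNC2, the fast skeletal troponin C, reached r = 0.984, and MYL1, a fast myosin light chain, r = 0.972. ENO3, the muscle enolase, stood at 0.959, MYLPF, another fast light chain, at 0.959 and SLN, a small regulator of the muscle calcium pump, at 0.955. MYH2, a fast myosin heavy chain, stood at 0.887 and MYOZ1, a Z-disc protein, at 0.863. The remaining probe set, annotated to the cytoplasmic actin ACTG1, stood at 0.972, with a range of 6.68 across animals. A second ACTG1 probe set had a range of 1.32 and r = -0.13 with CKM, so which actin the first one measures is uncertain. Spearman's rho was between 0.843 and 0.972 for these 8.

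The likeness of CKM to muscle genes did not rest on the animals with the most muscle signal. Over the 14 measured muscle genes the median r was 0.843, and it was 0.848 in the 12 animals left without high-oleic animal 7 and control animals 2 and 5. In those 12 animals r was 0.98 with TNNC2 and 0.97 with MYL1. With the giant sarcomere protein TTN it was 0.15, against 0.64 in all 15. These TTN values are those of its brightest probe set. A dimmer one, averaging 2.95 in high-oleic and 3.81 in control animals, was not compared with CKM here. On the brightest probe set TTN was high in those 3 animals alone. It was 6.04 in high-oleic animal 7 and 7.34 and 6.29 in control animals 2 and 5, and lay between 3.52 and 4.0 in the 12 others. This probe set met the 1.5-fold limit of the table, needed in at least 3 arrays, through those 3 animals alone. The fall in its r without them therefore depends on that limit. MYL1 by contrast covered the range from 2.27 to 9.88 in high-oleic animals and 2.21 to 10.49 in control animals, with many values in between.

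CKMT2 did not follow the same order. Its closest gene was PGAM2, the muscle phosphoglycerate mutase, at r = 0.785, with a rho of 0.411. FGF7, a growth factor made by stromal cells, came next at 0.778, and MYOZ1 and the fast troponin T gene TNNT3 stood at 0.748 and 0.704. MYOT, another Z-disc gene, stood at 0.658, TTN and the fast troponin I gene TNNI2 at 0.649 each, and RXRG, a retinoid X receptor, at 0.655. Of the 8 genes, 5 were on the skeletal muscle list. The median r with the 14 muscle genes was 0.569, and it was 0.143 in the 12 animals without high-oleic animal 7 and control animals 2 and 5. Between CKM and CKMT2, r was 0.51 in 15 animals (rho 0.36) and 0.13 in those 12 (rho 0.09). The 12 lack high-oleic animal 7 and control animal 2, through which, with high-oleic animal 6, CKMT2 met the limit of the table. The CKMT2 correlations and their fall therefore depend on that limit. Single animals differed in order too, though CKMT2 was dim and covered a range of 1.52, so steps between animals were small. Control animal 5 had MYL1 at 8.99 and TTN at 6.29, and CKMT2 at 4.16, which is 0.23 below the CKMT2 mean of the 15 animals. High-oleic animal 6 had CKMT2 at 5.07 with MYL1 at 7.26 and TTN at 3.67. Control animal 1, the lowest for CKM and MYL1, had CKMT2 at 4.6.

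**Figure D2:**
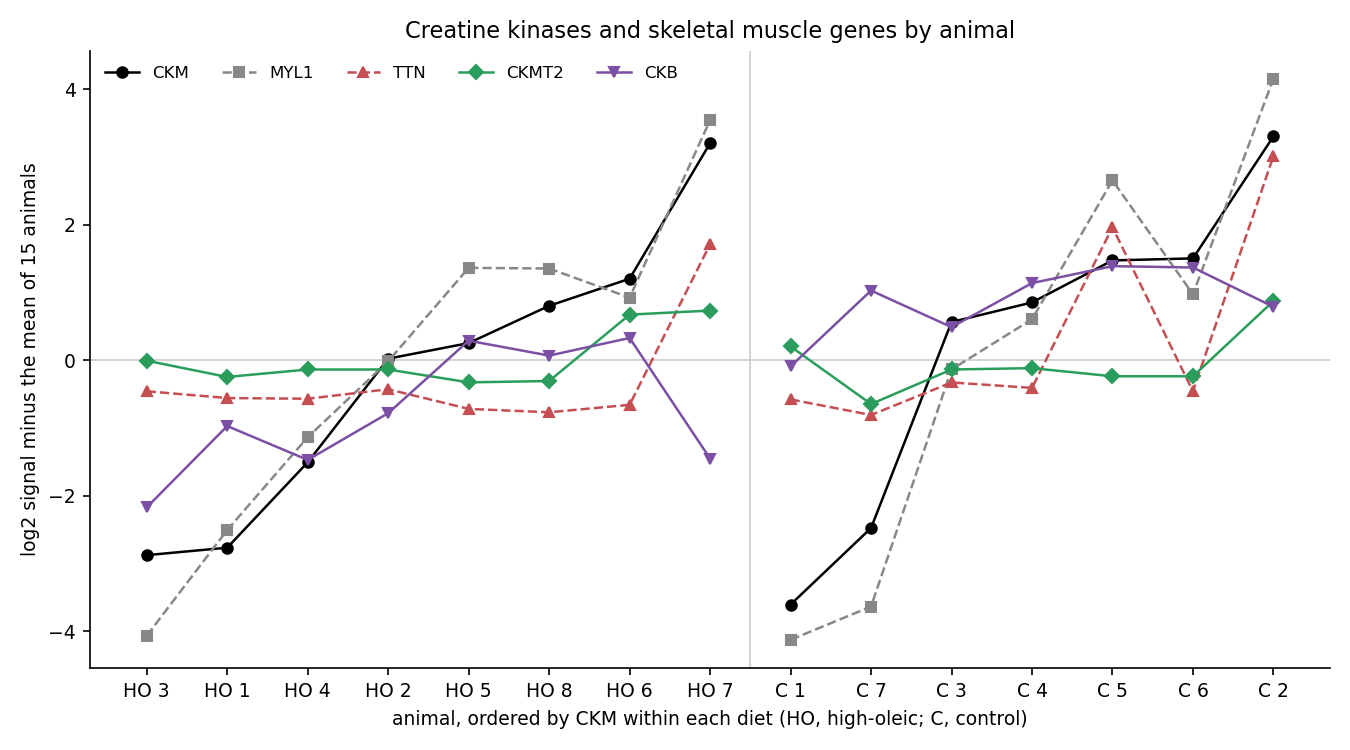
Log2 signal minus the mean of the 15 animals for CKM, MYL1, TTN, CKMT2 and CKB, with animals ordered by CKM within each diet, high-oleic at left and control at right. CKM and MYL1 run together over the whole range, TTN is raised in high-oleic animal 7 and control animals 2 and 5, CKMT2 stays within a range of 1.52, and CKB is low in high-oleic animal 7 although CKM is high there.

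CKB signal was present where the muscle signal was at its lowest. In the 4 animals with the lowest CKM, CKB was 8.87 and 10.07 in high-oleic animals 3 and 1, and 10.95 and 12.07 in control animals 1 and 7, above the median of each array. MYL1 was 2.27 and 3.83 in the same high-oleic animals and 2.21 and 2.70 in the same control animals. At the other end, CKB was 9.59 in high-oleic animal 7, the third lowest of 15, and 11.83 and 12.43 in control animals 2 and 5. Leaving these 3 muscle-rich animals out gave a CKB diet difference of -1.46. The smooth muscle list, 7 of 13 genes measured, had lower means in high-oleic animals for 7 of 7 genes, the direction of CKB. The median difference was -0.63, and none passed the test in limma. Lower means were also seen in 14 of 14 skeletal muscle genes and in 53.2% of all probe sets. At fixed diet, r of the 7 smooth muscle genes with CKB lay between -0.33 and 0.08. The smooth muscle actin ACTG2 entered the smooth muscle list by its brighter probe set, with a difference of -0.16. A dimmer ACTG2 probe set averaged 6.79 in high-oleic and 8.65 in control animals. Its difference of -1.85 (SE 0.75) was more negative than that of CKB, with an adjusted p of 0.999 in limma. The summed signal of the smooth muscle list ran from 6187 to 11343 with a median of 7595 in high-oleic animals. In control animals it ran from 7133 to 23824 with a median of 8617. Control animals 1 and 6 were the highest, at 23824 and 21578, and the 5 other control animals were at most 10182. CKB in those 2 control animals was 10.95 and 12.41, the lowest and the second highest of the group. The neural and glial list had 4 of 14 genes measured, with summed signals of 590 to 2755 in high-oleic animals and 222 to 1345 in control animals. Of the 4, 2 were higher and 2 lower in high-oleic animals, each with an adjusted p of 0.999 in limma. UCHL1, a neuronal deubiquitinase, differed by 1.21 and MBP, a myelin protein, by 0.53, while GAP43, a growth cone protein, differed by -0.54 and STMN2, a neuronal microtubule regulator, by -0.02. The part of these cell types in the CKB values was not tested.

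Within diets, CKB was nonetheless related in part to CKM. Between the pair, r was 0.45 over 15 animals (rho 0.48), 0.43 in the 8 high-oleic and 0.56 in the 7 control animals. Without high-oleic animal 7 and control animals 2 and 5, r was 0.75 in 12 animals (rho 0.78). The median r of CKB with the 14 muscle genes was 0.156 in 15 animals and 0.566 in those 12, where single genes ran from -0.44 for TTN and 0.31 for KLHL41 to 0.79 for MYL1 and 0.82 for MYLPF. Between CKB and CKMT2, r was -0.17 (rho -0.41). None of the 8 genes most like CKB was on the skeletal muscle list.

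The genes most like CKB across animals were of varied function. Likeness to CKB was broad, as 232 of 1257 named genes had r above 0.5 with it, against 82 with CKM and 25 with CKMT2. The signal of the spiked transcripts was not taken off. Its part in these correlations, and in that of CKB with CKM, was not tested. TGFB1, a signalling protein of tissue remodelling, reached r = 0.902 (rho 0.95), and NUAK1, a kinase of the AMPK-related family, 0.859. PLD2, a phospholipase, stood at 0.848, GADD45G, a stress-response protein, at 0.84, and ARHGAP25, a GTPase-activating protein, at 0.808. PTGDS, which makes prostaglandin D, stood at 0.804, SLC37A4, the glucose-6-phosphate transporter, at 0.8 and C9H1orf21 at 0.779. Only some of them shared the diet direction of CKB, and none differed between diets at an adjusted p under 0.05. PTGDS averaged 10.95 in high-oleic animals and 12.31 in control animals, or -1.36 between them, and GADD45G 9.10 in high-oleic and 9.85 in control animals, or -0.76. TGFB1 averaged 6.93 in high-oleic and 6.67 in control animals, or 0.26 between them, and NUAK1 10.86 in high-oleic and 10.69 in control animals, or 0.18. At the opposite end stood GK, the glycerol kinase, at r = -0.795, HSDL2, a peroxisomal dehydrogenase-like protein, at -0.779, and the cytokine gene IL15 at -0.763, with LOC100302368 at -0.825.

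**Figure D3:**
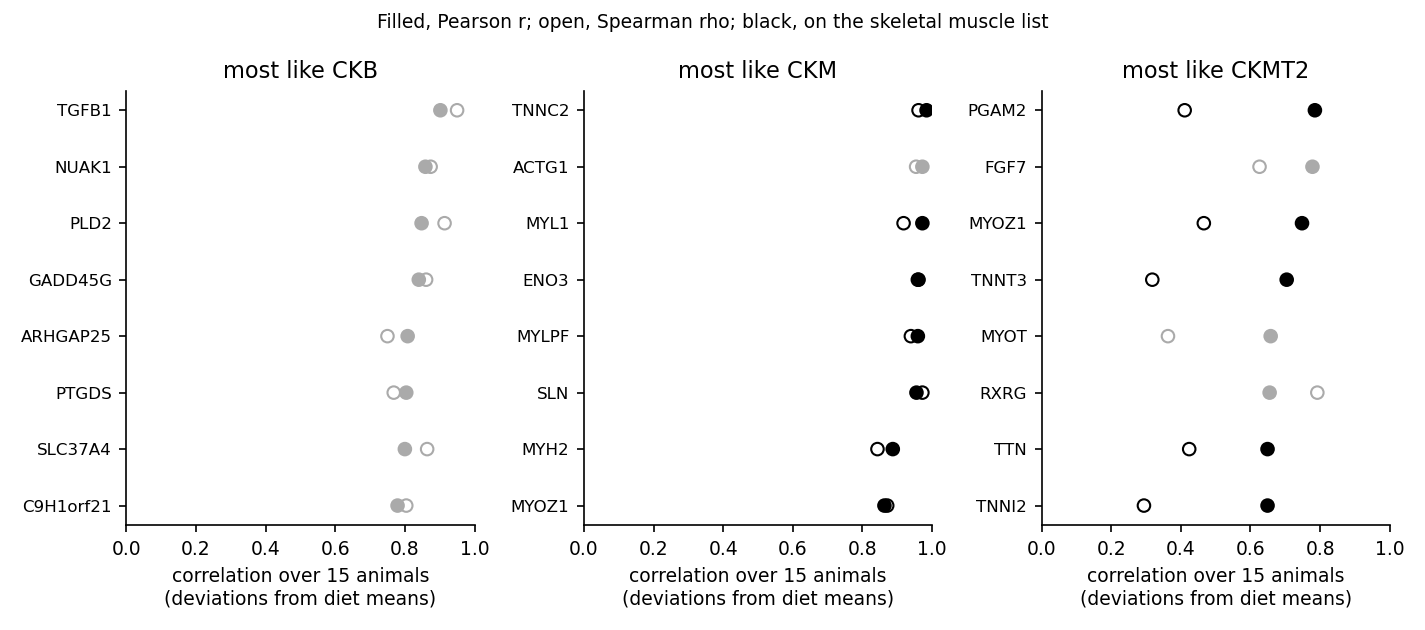
The 8 named genes most like CKB, CKM and CKMT2 over 15 animals, by Pearson r (filled) and Spearman's rho (open) of deviations from diet means, with genes of the skeletal muscle list in black. The CKM panel holds 7 listed muscle genes and ACTG1, all with both measures high, the CKB panel holds no listed muscle gene, and in the CKMT2 panel rho falls to 0.294 where r is 0.649.

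CKB also rose with the spiked signal at fixed diet, a relation looked for after the values were seen. The 3 high-oleic animals with the highest CKB, numbers 5, 6 and 8, had spiked signals of 6.49, 6.50 and 7.29, the 3 highest of all animals. Control animal 1, the lowest of its group for CKB, had the lowest spiked signal at 5.19. The spiked signal tended to rise with animal number in both diets, and the relation was not separated from animal number. The slope was 1.02 log2 units of CKB per log2 unit of spiked signal (SE 0.26, 95% interval 0.47 to 1.56), with an adjusted p of 0.0141 in limma over 3255 probe sets. Such relations were common, as 735 of the 3255 probe sets (22.6%) were called, 477 of them (14.7%) rising. Without high-oleic animal 8 the slope of CKB was 1.27 with an adjusted p of 0.0805, and 1 probe set was called, that of ZWILCH. CKM had a slope of 1.91 (SE 0.86) with an adjusted p of 0.114, and CKMT2 a slope of -0.11 (SE 0.23) with an adjusted p of 0.762. Over the settings run, the adjusted p lay between 0.0112 and 0.746 for CKB, between 0.0432 and 0.920 for CKM and between 0.546 and 0.985 for CKMT2.

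The spiked signal averaged 6.06 ± 0.69 (SD, n = 8) on the high-oleic diet, with animal 8 at 7.29, and 5.74 ± 0.34 (SD, n = 7) on the control diet. With it in the fit, the CKB diet difference was -1.97 with a standard error of 0.28, against -1.64 without it. This covariate was added after the data were seen. The part of the spiked signal in the CKB diet difference was not tested. The actin signal at the 3′ end minus that at the 5′ end, a measure of RNA integrity, averaged 0.89 ± 0.58 in high-oleic animals and 0.90 ± 0.48 in control animals. Within the high-oleic diet it was -0.22 in animal 3, the lowest for CKB, and 1.52, 1.28 and 1.19 in animals 5, 6 and 8, the highest for CKB, although animal 4, with CKB at 9.57, had 1.25. Among control animals it was lowest at 0.24 in animal 7, with CKB at 12.07. Its part in the CKB values was not tested.

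**Figure D4:**
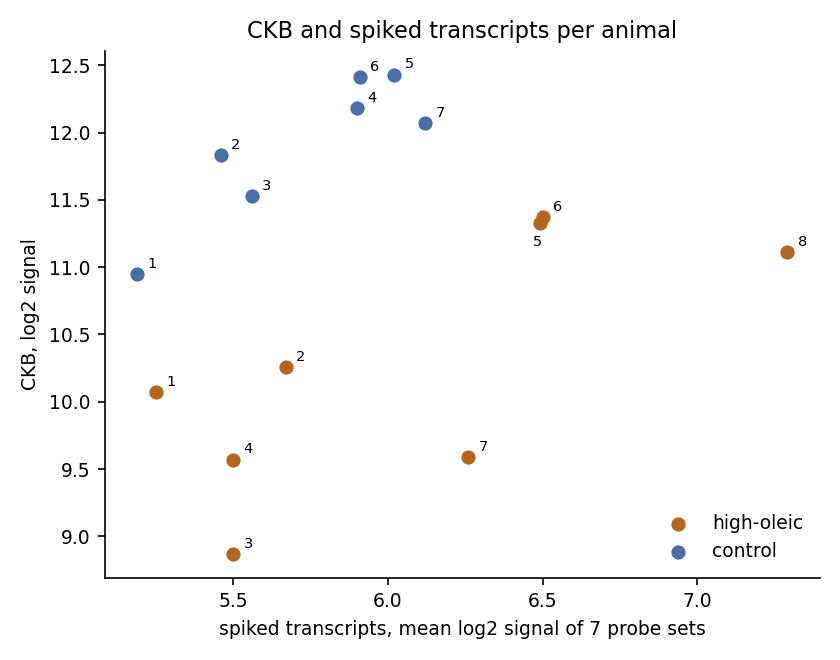
CKB log2 signal against the mean log2 signal of 7 probe sets for transcripts spiked into the RNA, 1 point per animal, high-oleic in brown and control in blue, numbered by animal. The highest CKB of the high-oleic group lies with its highest spiked signals, except in animal 7 at 9.59, and the high-oleic animals with spiked signals between 5.25 and 5.67 lie below every control animal.

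Live weight at slaughter was 109.2 ± 3.52 kg (SD, n = 8) in high-oleic animals and 117.2 ± 7.32 kg (SD, n = 7) in control animals, so weight and diet overlapped in part. At fixed diet, the CKB slope was 0.13 per 10 kg (95% interval -0.61 to 0.87), with an adjusted p of 0.944 in limma. The CKM slope was 1.27 per 10 kg (95% interval -0.54 to 3.09) with an adjusted p of 0.916, and that of CKMT2 was -0.02 (95% interval -0.55 to 0.50) with an adjusted p of 0.992. None of the 3 was called, among 0 of 3255 probe sets (0%) called on live weight by limma and 124 (3.81%) at an unadjusted p under 0.05. The CKB slope was -0.34 without control animal 5, the heaviest at 133 kg, so its sign was not settled. The CKM slope was 2.47 without that animal and 0.72 without high-oleic animal 7. With live weight in the fit the CKB diet difference was -1.54 (SE 0.47), and among animals weighing 109.5 to 118 kg alone it was -1.99 (SE 0.43).

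Few other genes of creatine metabolism were in the table, which held only variable probe sets. Of 20 listed genes of creatine and phosphate transfer 4 were measured, of which 3 were higher and 1 was lower in high-oleic animals, and their median diet difference was 0.11, against -0.03 over all probe sets. None of the 4 differed at an adjusted p under 0.05 in limma, with an adjusted p of 0.999 for each. GAMT, which makes creatine from guanidinoacetate, averaged 9.46 ± 0.41 in high-oleic animals and 9.03 ± 0.42 in control animals, or 0.43 between them (95% interval -0.08 to 0.94). VDAC2, a channel of the outer mitochondrial membrane, differed by 0.22 (95% interval -0.43 to 0.87), and AK5, an adenylate kinase, by -0.37 (95% interval -1.09 to 0.36).

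SLC6A8, the transporter that brings creatine into cells, varied widely within both diets. It ran from 7.73 to 9.85 with a median of 8.08 in high-oleic animals, and from 7.17 to 10.12 with a median of 8.34 in control animals. High-oleic animals 1, 5 and 8 and control animals 5 and 7 were above 9, the others at or below 8.53. The diet difference was 0.01 (95% interval -0.94 to 0.96). Across animals at fixed diet it had r = 0.50 with CKB, -0.04 with CKM and -0.44 with CKMT2. Of 16 listed genes of thermogenic fat, 2 were measured and none differed in limma. ACSL5, an acyl-CoA synthetase, differed by 0.14 (95% interval -0.41 to 0.69) and RYR2, a calcium release channel, by 0.40 (95% interval -0.21 to 1.00), each with an adjusted p of 0.999.

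**Figure D5:**
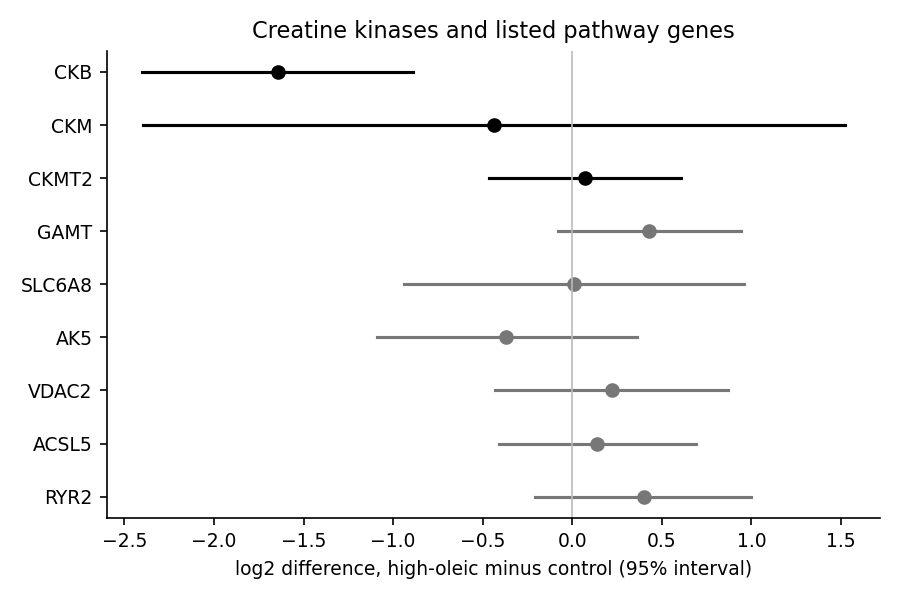
Log2 difference in signal, high-oleic minus control, with 95% intervals from limma, for the 3 creatine kinases (black) and the measured genes of the creatine and thermogenic lists (grey), over 8 high-oleic and 7 control animals. The difference of CKB, picked for this contrast, is -1.64, and those of the 6 listed genes lie between -0.37 and 0.43.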

How the data were processed

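Signals of 15 arrays were taken from the authors' table of log2 values. GCOS and GCRMA are named in the submitters' processing notes, while settings and any scaling between arrays were not given in the sources used here. A log2 scale was inferred from the range of the deposited values, 1.49 to 14.36. Every probe set deviated by 1.5-fold or more from its median in at least 3 arrays, so less variable genes were not analysed here. Groups and live weights are those of the labels. After 17 control probe sets were left out, the remaining 3255 entered limma (version 3.58.1, R 4.3.3; lmFit and eBayes), two-sided, with Benjamini-Hochberg adjustment over all of them and a threshold of 0.05. Symbols came from the platform annotation, updated by gene ID through RefSeq (assembly Sscrofa11.1, names only): 1455 probe sets had 1 symbol, 27 several and 1773 none. The number of arrays limits the precision.

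Named were the 3 members, the 8 genes most like each, the 4 least like CKB, the measured listed genes and up to 4 genes per marker list, with the probe set of highest mean per gene. ZWILCH was named after its values were seen. The members, lists and settings were chosen with earlier results of these data known. Of the fast fibre list 6 of 13 genes were measured (median difference -0.27, none called), of the endothelial list 2 of 8 (-0.16) and of the macrophage list 5 of 10 (-0.05). Of 9 slow fibre genes 0 were in the table. The skeletal muscle median was -0.35, the smooth muscle -0.63, the neural and glial 0.26 and the adipocyte 0.57. Alternatives were quantile normalization, median centring, a floor and a filter at 4, another variance prior, left-out animals, the animal number as a block, live weight and a weight window. The spiked signal was added after seeing the data. Figures were drawn with matplotlib 3.10.9.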

Additional observations from a re-analysis of the deposited data

Results flagged for a closer look

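Of 34 comparisons of one animal with the rest of its diet group, 3 found an animal standing apart, where chance gives about 1.70 if they are independent. CKB minus the mean of CKM and CKMT2 reached -3.42 in high-oleic animal 7, while the 7 others on that diet had a median of -0.62. The skeletal muscle score, the mean over 14 genes of the log2 value minus the gene's mean, was 2.59 in the same animal, while the 7 others had a median of -0.48. Both values come from the same array, in which CKM was 9.39 and CKB 9.59. AK5, an adenylate kinase, reached 5.07 in high-oleic animal 4, while the 7 others had a median of 3.60. Control animals 1 and 5 had higher AK5, at 5.34 and 5.10.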

How the results depend on the processing

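The CKB diet difference was negative in 26 of 26 settings, that of CKM in 24 of 26, and that of CKMT2 was positive in 23 of 26. All settings reuse the arrays on which CKB was selected, so its sign is no independent support. The floor, the filter and the other variance prior left CKB at -1.64. The replicate block and leaving out high-oleic animal 8 each gave -1.76. Without 1 animal at a time the CKB difference ran from -1.80 to -1.44, CKM from -1.08 to 0.07, CKMT2 from -0.03 to 0.23 and the contrast of brain and muscle types from -1.81 to -1.07. Probe sets called between diets numbered 1 with the spiked signal as a covariate and 0 with live weight added to it, against 0. That 1 was CKB, which was picked for this contrast, so the call is no test of it. Without 1 animal, 0 to 5 were called on live weight and 1 to 768 on the spiked signal, against 0 and 735. The live weight slope without 1 animal ran from -0.34 to 0.30 for CKB, from 0.72 to 2.47 for CKM and from -0.18 to 0.22 for CKMT2. With the spiked signal as a covariate it was -0.12 for CKB and 0.0030 for CKMT2. The spiked signal slope without 1 animal ran from 0.87 to 1.27 for CKB, from 1.44 to 2.73 for CKM (adjusted p 0.0484 without control animal 2 and 0.0432 without control animal 7 in limma) and from -0.21 to 0.016 for CKMT2.

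Animal numbers are shared by the diets, and no label says that they pair animals. Of the 7 same-numbered pairs 4 correlated above 0.1, short of all 7, and 3 of 7 high-oleic animals correlated best with their own number, a hint from the data that leaves pairing unsettled. With the replicate block, the live weight slope was -0.64 for CKB and 0.27 for CKMT2. The spiked signal slope was then 1.70 for CKB (SE 0.75 against 0.26, adjusted p 0.746 in limma) and 0.50 for CKMT2, with 0 probe sets called. The spiked signal tended to rise with animal number, so the block shares variation with it. It was 5.19 and 6.12 in control animals 1 and 7, and 5.25 and 7.29 in high-oleic animals 1 and 8. The cause of these changes was not tested. A mean over probe sets could not differ, with 1 probe set per gene. Dim signal limits CKMT2.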
